A study of Mus musculus with 7 samples.

Results

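The 10 genes described here carry signals from receptors to the effectors of heterotrimeric G proteins, among them the small GTPase RhoA, and were followed in C3H10T1/2 cells exposed to purmorphamine. They were chosen by name and comprise 6 genes for α subunits of heterotrimeric G proteins (Gna12, Gna13, Gnai1, Gnai2, Gnai3 and Gnas), 3 genes for guanine nucleotide exchange factors that act on RhoA (Arhgef1, Arhgef11 and Arhgef12) and Rhoa itself. All 10 were found among the 18468 genes of the table and all 10 were among the 12388 genes tested, although Gnai1 entered the test through its purmorphamine libraries alone. The C3H10T1/2 line, established from embryos of the C3H mouse strain, is multipotent and mesenchymal and was kept at no more than 10 passages. Cells were held without serum for 12 h and then treated for 48 h, still without serum. They were given 2 μM purmorphamine, a small-molecule agonist of Smoothened (Smo) (n = 4 libraries, numbered 5 to 8), or 0.02% DMSO, its vehicle (n = 3 libraries, numbered 2 to 4). Neither group carried a transgene or a deletion according to the labels. The values are therefore those of 1 cell line, and the labels do not say whether the libraries came from separate cultures, so that every p-value measures only the spread between these libraries.

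A heterotrimeric G protein consists of an α subunit, which binds GDP or GTP, and a βγ dimer, and a receptor that promotes the exchange of GDP for GTP sets the α subunit free to act. α subunits of the Gi family inhibit adenylyl cyclase and can be engaged by Smo, Gαs stimulates adenylyl cyclase and opposes Hedgehog signaling through protein kinase A, and Gα12 and Gα13 bind exchange factors that contain a domain related to the regulators of G protein signaling (RGS) and that load RhoA with GTP. The question addressed is whether the RNA of these components differed once Smo had been activated, since the study set Smo beside an active form of Gα13.

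The 6 α subunits differ at their carboxyl terminus, the segment that a receptor contacts and by which the families are told apart. The last 36 bases of each coding sequence, stop codon included, are given 5′ to 3′ from GENCODE M21 transcripts (build GRCm38), and the capitals mark the codon of the fourth residue from the end. They lie at chr5:140760549-140760584 on the minus strand for Gna12, chr11:109396451-109396486 on the plus strand for Gna13, chr5:18267019-18267054 on the minus strand for Gnai1, chr9:107615635-107615670 on the minus strand for Gnai2, chr3:108109422-108109457 on the minus strand for Gnai3 and chr2:174346353-174346388 on the plus strand for Gnas, each within 1 coding exon.
Gna12: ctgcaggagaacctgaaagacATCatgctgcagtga
Gna13: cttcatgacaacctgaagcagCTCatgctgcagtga
Gnai1: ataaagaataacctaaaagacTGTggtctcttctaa
Gnai2: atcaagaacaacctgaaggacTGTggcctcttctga
Gnai3: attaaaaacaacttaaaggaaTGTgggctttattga
Gnas: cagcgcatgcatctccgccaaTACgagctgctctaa
The marked codon is TGT, for the cysteine that pertussis toxin modifies, in the 3 Gnai genes, and encodes another amino acid in Gna12, Gna13 and Gnas. Without the stop codon, Gna12 and Gna13 share 26 of 33 bases, Gnai1 and Gnai2 share 28, and Gnas shares only 10 to 11 with any Gnai gene. The study's active Gα13, called Gα13QL, has leucine in place of a glutamine that is needed for hydrolysis of GTP. The codon of this glutamine is in capitals in the wild-type mouse Gna13 sequence at chr11:109396013-109396045 (GRCm38, plus strand). The study's construct was a human cDNA, whose bases are not given here.
Gna13 glutamine: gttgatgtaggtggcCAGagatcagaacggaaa
All of the other α subunit genes also carry a glutamine codon in the aligned position. Runs of 100 bases, the length of a read, were compared with genes outside the 10 across the whole exonic sequence. None of Gna12, Gna13, Gnai1, Gnai3, Gnas, Arhgef1 and Arhgef11 shares such a run with those genes. Runs shared among the 10 genes themselves were not examined. Rhoa shares 1.37% of its 100-base runs (with Gm12844 and Gm13578), Gnai2 0.149% and Arhgef12 0.0719%.

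The libraries held 14337225 to 14342154 reads each, because the authors had resampled them to equal size. Gli1, a direct target of Smo signaling and here the check of the treatment, rose from 10.0 ± 2.65 reads (SD, n = 3) to 2770.0 ± 295 (SD, n = 4), with an adjusted p of 1.44e-16 from edgeR. The mesenchymal markers fixed for the line, all 8 of 8 in the table, summed to 19368 to 19930 CPM (reads scaled to the size of the library) with DMSO and 17466 to 18970 with purmorphamine. Macrophage markers summed to at most 1.46 CPM in any library. Endothelial markers summed to 54.3 to 57.2 with DMSO and 132.0 to 150.2 with purmorphamine, nearly all of it Tek, while Pecam1 had at most 5 reads and Cdh5 had 0 with DMSO and 21 to 26 with purmorphamine. Epithelial markers, nearly all Cdh1 with purmorphamine, summed to 0.976 to 1.53 and 7.74 to 9.49 CPM. Markers of mature osteoblasts summed to 5.72 to 6.83 and 0.837 to 2.09 CPM. Most of this was Dmp1, with 79 to 95 reads with DMSO and 9 to 19 with purmorphamine. Sp7 went the other way, from 2 reads to 3 to 9, and Bglap and Ibsp had at most 2. Markers of mature adipocytes summed to 3.28 to 4.53 and 1.33 to 1.95 CPM, and those of skeletal muscle to at most 0.418. Within the mesenchymal sum, Vim had 79220 to 81440 reads with DMSO and 41359 to 43378 with purmorphamine, whereas Pdgfra had 10552 to 11060 and 18354 to 19275. The part of any of these in the results was not tested. In these bulk samples, fewer cells of a type and less RNA per cell cannot be told apart.

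With purmorphamine, Gna12 and Gnai2 increased 1.15-fold and Arhgef11 1.16-fold, Gnas decreased to 0.896 of its level with DMSO, and Gnai1, with 7 to 12 reads per library, passed the threshold narrowly. Gna13, Gnai3, Arhgef1, Arhgef12 and Rhoa did not pass it. By edgeR's quasi-likelihood test, with a threshold of 0.2 on the p-value adjusted after Benjamini and Hochberg, which is the false discovery rate of the study, 4 of the 10 were increased (3 without Gnai1), 1 was decreased and 5 were not called. Of all genes tested, 62.5% were called, 31.4% increased and 31.1% decreased, so that a call for 5 of these 10 genes lay near the background. The median log2 fold change of the 10 genes was 0.06, against 0.00376 over all genes tested, and the median absolute log2 fold change was 0.12, against 0.2. Both medians of the 10 include Gnai1. With Gnai1 left out, the middle log2 fold change was that of Arhgef1, 0.02, and the middle absolute change was that of Gna13, 0.09. The changes of the 10 genes ran from -0.16 to 0.59 on the log2 scale, and 15.1% of the genes tested exceeded 0.59 in either direction. The 0.59 was that of Gnai1, and without Gnai1 the largest change was 0.21, for Arhgef11, near the median absolute change of 0.2 over all genes tested. With the deposited counts, groups stood apart without overlap for 4 of the 10 genes (3 without Gnai1), against 49.5% of all genes tested. In all 4 (Gna12, Gnai1, Gnai2 and Arhgef11) purmorphamine was above DMSO, as it was for 29.1% of all genes tested, whereas it was below DMSO for 20.4%. After scaling, 4 again stood apart (Gna12, Gnai1, Arhgef11 and Rhoa), against 49.2% of all genes. At an adjusted p under 0.05, which 46.9% of all genes tested passed, Gna12, Gnai2, Gnas and Arhgef11 remained called.

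**Figure D1:**
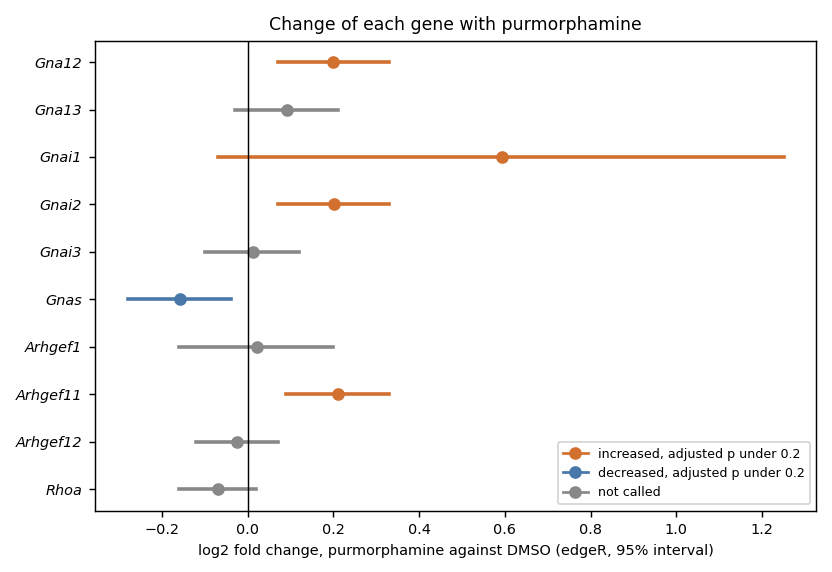
Log2 fold change of each of the 10 genes, purmorphamine against DMSO, as points with 95% intervals from edgeR, orange where increased, blue where decreased and grey where not called. The points lie between -0.16 and 0.59, and the interval of Gnai1 is the widest and includes 0.

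Of the G12 family, which is the family of Gα13, Gna12 changed and Gna13 did not pass the test. Gna12, which encodes Gα12 (ENSMUSG00000000149, minus strand of chromosome 5, 140758408 to 140830431 in GRCm38), had 572, 544 and 582 reads with DMSO and 707, 696, 611 and 673 with purmorphamine. Every purmorphamine library lay above every DMSO library, the nearest being purmorphamine replicate 7. The means were 566 ± 19.7 (SD, n = 3) and 672 ± 42.9 (SD, n = 4), and edgeR gave a log2 fold change of 0.20 (SE 0.063, adjusted p = 0.0156). Reads of the opposite-strand gene Amz1, which overlaps 456 exonic bases of Gna12, were kept apart by counting in the sense direction.

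Gna13, which encodes Gα13 (ENSMUSG00000020611, plus strand of chromosome 11, 109362831 to 109401369), had 1640, 1470 and 1417 reads with DMSO and 1647, 1549, 1690 and 1756 with purmorphamine. The groups overlapped through DMSO replicate 2, which lay above purmorphamine replicate 6. On the log2 scale the change was 0.09 (SE 0.0583, adjusted p = 0.216 in edgeR), and the 95% interval, 0.978- to 1.16-fold, covered both a small decrease and an increase as large as that of Gna12. Without DMSO replicate 2 the log2 fold change was 0.16 with an adjusted p of 0.0534 from edgeR, and without purmorphamine replicate 6 it was 0.13 with an adjusted p of 0.0517, so that each of these libraries decided whether Gna13 was called. The overlapping antisense gene Gm11696 covers 151 of its exonic bases.

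**Figure D2:**
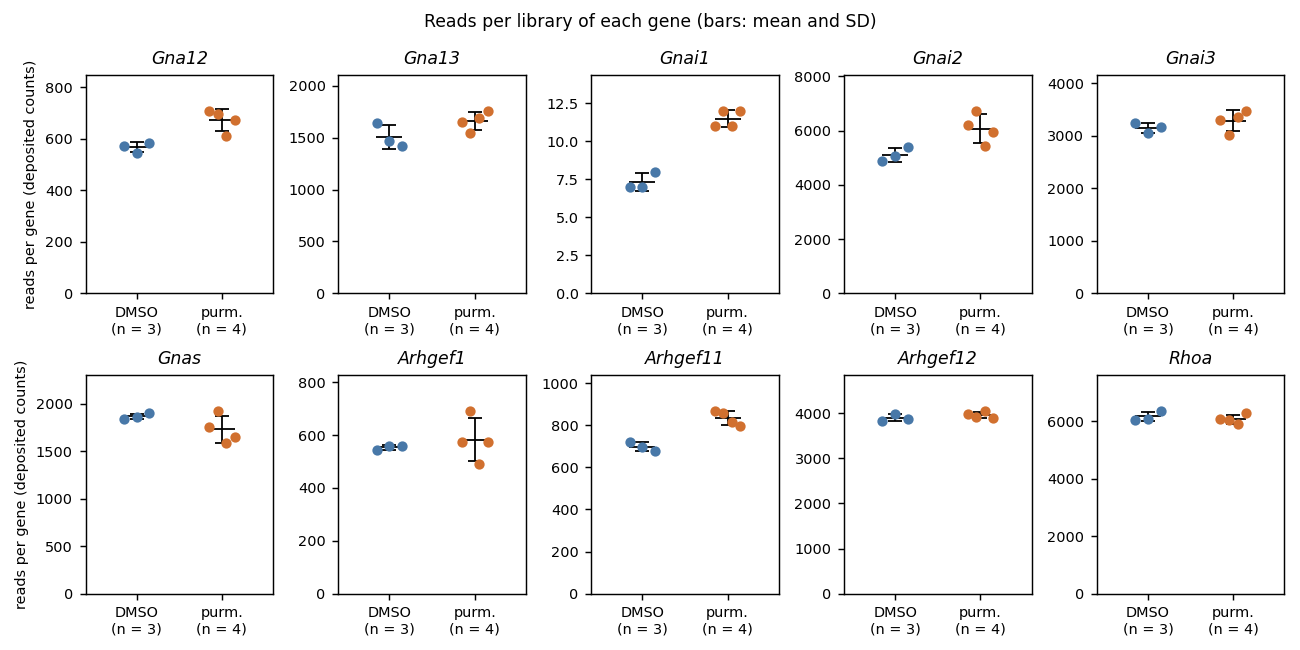
Reads per library of the 10 genes as deposited (vertical axes from 0, a separate scale for each gene), with DMSO in blue (n = 3), purmorphamine (purm.) in orange (n = 4), and bars for the mean and SD. The groups stand apart for Gna12, Gnai1, Gnai2 and Arhgef11, and Arhgef1 varied most among the purmorphamine libraries relative to DMSO, from 492 to 690 reads.

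In the Gi family, to which Smo can couple, Gnai2 was the most abundant member and increased. Gnai2, which encodes Gαi2 (ENSMUSG00000032562, minus strand of chromosome 9, 107614125 to 107635367), had 4879, 5057 and 5396 reads with DMSO and 6221, 6722, 5424 and 5934 with purmorphamine. The deposited counts did not overlap, but purmorphamine replicate 7 came within reach of DMSO replicate 4 and the groups overlapped once scaled (exact permutation test, two-sided, p = 0.0857). Its log2 fold change in edgeR was 0.20 (SE 0.0612, adjusted p = 0.0124), from a mean of 5111 ± 263 to 6075 ± 543 reads.

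Gnai3, which encodes Gαi3 (ENSMUSG00000000001, minus strand of chromosome 3, 108107280 to 108146146), had 3246, 3057 and 3166 reads with DMSO and 3298, 3015, 3367 and 3475 with purmorphamine. The lowest value of all was a purmorphamine library, replicate 6, and the groups overlapped. Its log2 fold change was 0.01 (SE 0.0525, adjusted p = 0.872 in edgeR) with a 95% interval of 0.934- to 1.09-fold, and its sign turned without DMSO replicate 3 or purmorphamine replicate 8 (-0.01 for each).

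Gnai1, which encodes Gαi1 (ENSMUSG00000057614, minus strand of chromosome 5, 18265135 to 18360355), was close to the limit of detection, with 7, 7 and 8 reads with DMSO and 11, 12, 11 and 12 with purmorphamine. No DMSO library reached the lowest purmorphamine library. In edgeR this was a log2 fold change of 0.59 (SE 0.312, adjusted p = 0.166). All DMSO libraries were below the filter's minimum of 10 reads, so the gene could be tested only because the purmorphamine libraries were higher, and its separation and its call are given as a description. Summed over libraries there were 22 reads against 46, a ratio per library of 1.57 with an exact 95% interval of 0.924 to 2.74 that covers counting error only. The SD of 0.577 in each group was smaller than the 2.71 that counting alone would give around the DMSO mean. Leaving out any DMSO library, or purmorphamine replicate 6 or 8, ended this call (adjusted p = 0.202 to 0.276 in edgeR).

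Gnas, which encodes Gαs, was the only gene of the 10 that decreased. It (ENSMUSG00000027523, plus strand of chromosome 2, 174284320 to 174346744) had 1844, 1862 and 1898 reads with DMSO and 1757, 1920, 1590 and 1652 with purmorphamine. Purmorphamine replicates 5, 7 and 8 lay below every DMSO library, and replicate 6 lay above all of them. edgeR put the log2 fold change at -0.16 (SE 0.0566, adjusted p = 0.0298), and the two-sided exact permutation test of the scaled values gave p = 0.0857. Gnas is an imprinted locus with several first exons that give XLαs and NESP55 besides Gαs, and a single count per gene does not separate them. The antisense transcript Nespas overlaps 988 of its exonic bases.

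The 3 exchange factors with an RGS-type domain are the route by which Gα12 and Gα13 reach RhoA, and of these Arhgef11 alone passed the test. Arhgef11, which encodes PDZ-RhoGEF (ENSMUSG00000041977, plus strand of chromosome 3, 87617559 to 87738034), had 718, 698 and 676 reads with DMSO and 866, 856, 816 and 796 with purmorphamine. The purmorphamine libraries all exceeded those with DMSO (two-sided exact permutation p = 0.0286, the lowest value possible with 3 and 4 libraries). Means were 697 ± 21.0 and 834 ± 33.0 reads, with a log2 fold change of 0.21 in edgeR (SE 0.0548, adjusted p = 0.00461), the lowest adjusted p among the 10 genes. Lrrc71 overlaps 991 of its exonic bases on the opposite strand.

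Arhgef12, which encodes LARG (ENSMUSG00000059495, minus strand of chromosome 9, 42963842 to 43107239), had 3836, 3988 and 3883 reads with DMSO and 3994, 3916, 4043 and 3886 with purmorphamine. The groups overlapped and both were narrow, with SDs of 77.8 and 71.8 reads. Its log2 fold change was -0.03 (SE 0.043, adjusted p = 0.657 in edgeR), with a 95% interval of 0.922- to 1.05-fold, and it was 0.02 when scaled by library totals alone.

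Arhgef1, which encodes p115-RhoGEF (ENSMUSG00000040940, plus strand of chromosome 7, 24902912 to 24926594), had 543, 560 and 560 reads with DMSO and 574, 690, 492 and 572 with purmorphamine. The purmorphamine libraries lay on both sides of the narrow DMSO range, with replicate 6 the highest and replicate 7 the lowest. In edgeR the log2 fold change was 0.02 (SE 0.0846, adjusted p = 0.852), with a 95% interval of 0.897- to 1.15-fold, and -0.06 without replicate 6.

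Rhoa, the GTPase on which these exchange factors converge (ENSMUSG00000007815, plus strand of chromosome 9, 108306129 to 108337934), had 6062, 6098 and 6351 reads with DMSO and 6084, 6056, 5893 and 6278 with purmorphamine. The deposited counts overlapped, whereas after scaling every purmorphamine library was below every DMSO library (two-sided exact permutation p = 0.0571). Its log2 fold change was -0.07 (SE 0.0437, adjusted p = 0.211 in edgeR), with a 95% interval of 0.894- to 1.02-fold. It passed the threshold without purmorphamine replicate 8 (adjusted p = 0.196 from edgeR) and with limma-voom (adjusted p = 0.185).

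Levels of different genes were compared per length, as RPKM, which divides the reads of a gene by its exon length and by the size of the library, over the union of all annotated exons. With DMSO, Gnai2 was highest at 94.3 ± 4.85 RPKM (SD, n = 3) and was followed by Gnai3 at 67.5 ± 2.03 and Rhoa at 57.4 ± 1.47. Arhgef12 (19.6 to 20.4), Gna13 (16.4 ± 1.26), Gna12 (11.6 ± 0.402), Gnas (11.6 ± 0.172), Arhgef11 (6.12 ± 0.184) and Arhgef1 (5.0 ± 0.0887) came next on this scale, and Gnai1 was last at 0.163 ± 0.0128. Neighbours in this order had ranges that stood apart, except for Gna12 and Gnas with DMSO. With purmorphamine the order was the same, at 112 ± 10.0 for Gnai2 and 0.256 ± 0.0128 for Gnai1, and Gna12 (13.7 ± 0.877) then stood above Gnas (10.8 ± 0.901). The order depended on the length used, since with the longest protein-coding transcript in its place Rhoa was at 196 ± 5.0 with DMSO, above Gnai2 at 161 ± 8.27, and Gnas at 33.0 ± 0.486 was above Arhgef12 at 25.3 ± 0.505. Arhgef1 at 11.0 ± 0.195 was likewise above Arhgef11 at 7.18 ± 0.216 with DMSO. Rhoa was 193 ± 5.01 and Gnai2 191 ± 17.1 with purmorphamine on that scale.

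Per unit of exon length, Gnai2 made up 58.2% ± 1.6 of the 3 Gnai genes with DMSO and 61.3% ± 3.34 with purmorphamine, and Gnai1 only 0.101% ± 0.0049 and 0.14% ± 0.00569. The remainder was Gnai3, at 41.7% ± 1.6 and 38.6% ± 3.34. Gna13 was the larger member of the G12 family, at 58.6% ± 2.01 and 56.8% ± 2.45. Arhgef12 made up 64.3% ± 0.492 and 61.8% ± 1.95 of the 3 exchange factors, Arhgef11 19.7% ± 0.656 and 22.3% ± 0.445, and Arhgef1 16.1% ± 0.254 and 16.0% ± 1.93. All of these shares depend on the length used. With the longest protein-coding transcript, Arhgef1 was above Arhgef11 in both groups (11.0 against 7.18 RPKM with DMSO, 11.6 against 8.58 with purmorphamine). RNA for Gα13, LARG and RhoA was thus present at measurable levels in both groups, and among the 3 Gnai genes nearly all of the level was that of Gnai2 and Gnai3. Gnao1, of the wider Gi family and not in these shares, was at 6.62 RPKM with DMSO and 8.33 with purmorphamine.

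In all, 6 ratios of a pair of genes within a library, which do not depend on how libraries are scaled, were compared with an exact permutation test and adjusted by Benjamini-Hochberg over the 6. Apart from that of Gnai1 to Gnai2, 2 separated the groups, each at the smallest p that the design allows. Of all genes tested, 49.5% stood apart singly in the deposited counts, and the share among other pairs of genes was not tested. The log2 ratio of Gnas to Gnai2, the α subunits of opposite action on adenylyl cyclase, was -1.40, -1.44 and -1.51 with DMSO and -1.82, -1.81, -1.77 and -1.84 with purmorphamine. Every purmorphamine library was lower, the difference was -0.36 (0.779-fold), and the SDs were 0.0525 and 0.0315 (exact permutation test, two-sided, p = 0.0286, adjusted p = 0.0571, or 0.0714 over the 5 ratios without Gnai1). Replicate 6, which had the most reads of both genes among the purmorphamine libraries, did not stand apart in this ratio, although Gnas ran from 1590 to 1920 reads and Gnai2 from 5424 to 6722 in that group.

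The log2 ratio of Arhgef11 to Arhgef12 was -2.42, -2.51 and -2.52 with DMSO and -2.20, -2.19, -2.31 and -2.29 with purmorphamine. Purmorphamine libraries were higher throughout, by 0.24 or 1.18-fold (exact permutation test, two-sided, p = 0.0286, adjusted p = 0.0571, or 0.0714 over 5 ratios). The ratio of Gnai1 to Gnai2 was also higher in all of them, by 0.34 on the log2 scale, which is given as a description, since Gnai1 had few reads and was tested only through its purmorphamine libraries. For Gna13 to Gna12 (difference -0.11, exact permutation p = 0.343, adjusted p = 0.411), Gnai3 to Gnai2 (-0.19, exact permutation p = 0.229, adjusted p = 0.343) and Arhgef1 to Arhgef12 (0.04, exact permutation p = 0.657, adjusted p = 0.657), the groups overlapped.

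**Figure D3:**
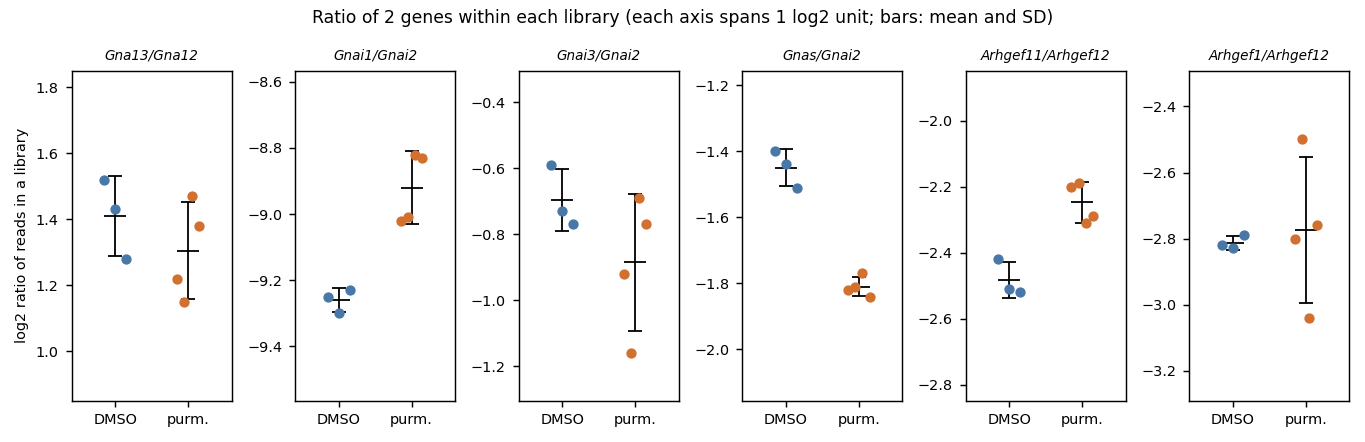
Log2 ratio of the reads of 2 genes within each library (1 added to each count) for 6 pairs, DMSO in blue and purmorphamine (purm.) in orange, with bars for the mean and SD and an axis of 1 log2 unit in each panel. The ratios of Gnas to Gnai2 and of Arhgef11 to Arhgef12 separate the groups, as does that of Gnai1 to Gnai2, which rests on 7 to 12 reads of Gnai1 per library.

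The purmorphamine libraries differed among themselves by base composition. Over the 9667 genes that averaged 100 reads or more, the log2 deviation of a library from its group mean had a slope on GC content of 0.123 per 10 percentage points in replicate 6 and -0.111 in replicate 7, against -0.0482 to 0.0355 in the other 5 libraries. The GC content of the longest coding transcript was 61.2% for Arhgef1, 58.2% for Gna12, 57.8% for Gnas and 56.7% for Gnai2, and 41.7% for Gnai3. In replicate 6, Arhgef1 deviated by 0.25 (log2), Gnas by 0.15 and Gnai2 by 0.14, but Gna12 by only 0.05, and Gnai3 by -0.13. In replicate 7 the order was turned, with Arhgef1 at -0.22, Gnai2 at -0.15, Gna12 at -0.12 and Gnas at -0.11, and Gnai3 at 0.05. With each library's trend on GC content and length taken into the fit, an alternative chosen after seeing the data, the log2 fold change was 0.23 for Gnai2 (adjusted p = 2.5e-05 from edgeR), -0.18 for Gnas (0.000215), 0.19 for Gna12 (0.00641) and 0.20 for Arhgef11 (0.0013), and Gna13 (0.07, adjusted p = 0.242), Arhgef1 (0.0019, 0.981) and Rhoa (-0.04, 0.396) were not called. Gnai1 was at 0.59 (adjusted p = 0.161), so that the 5 genes called without the correction were also called with it.

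**Figure D4:**
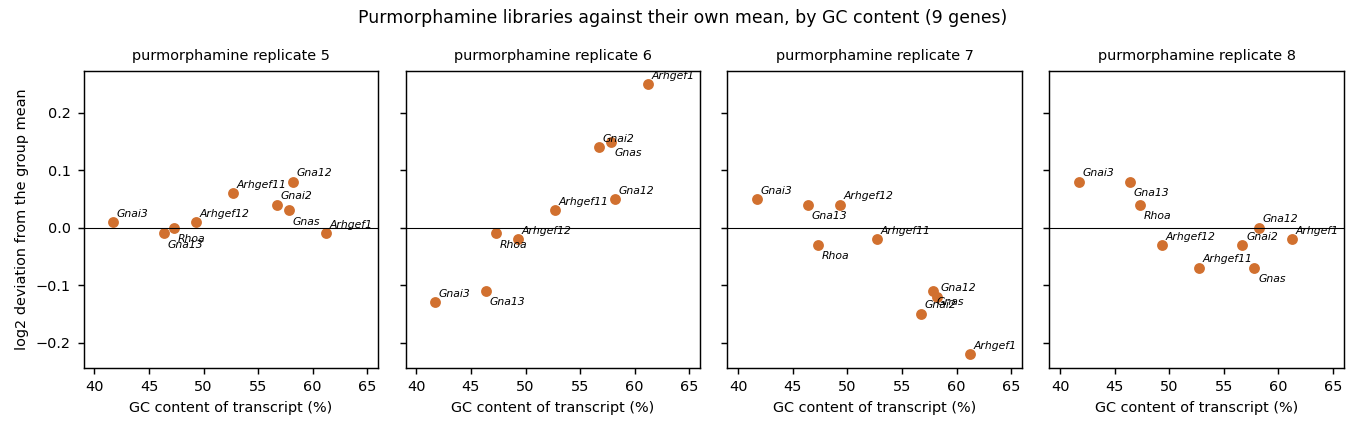
Log2 deviation of 9 genes (Gnai1, with its few reads, left out) from the mean of the purmorphamine group, against the GC content of the longest coding transcript in percent, 1 panel per purmorphamine library. In replicate 6 the genes run from -0.13 (Gnai3) up to 0.25 (Arhgef1) with GC content, and in replicate 7 from 0.05 (Gnai3) down to -0.22 (Arhgef1). Gna12, at 58.2% GC, was at only 0.05 in replicate 6.

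The 9 genes with a RefSeq promoter window, all but Gnai2, were searched for the Gli motif GACCACCCA on both strands in the 300 bases around each start (250 before and 50 after, RefSeq). None held these letters, and of all 32851 promoters of that length 0.253% did. The window of Ptch1, a known Gli target, did not hold them either, so the search says nothing of control by Gli.

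Other genes of the G protein and RhoA pathways were taken from 9 lists with 118 names, of which 110 were in the table and 92 were tested. Of these, 37 increased, 32 decreased and 23 were not called (75.0% called, against 62.5% of all genes tested), with a median log2 fold change of 0.02. Among them, 2 called genes, Gng4 and Rgs17, had 10 reads or more in 1 group only. The partners that complete a G protein included Gnb1 (log2 fold change -0.03, adjusted p = 0.627 from edgeR), the most abundant β subunit and not called, and Gng12, the most abundant γ subunit, which rose from 3026 ± 79.4 to 3844 ± 136 reads (0.30, adjusted p = 4.97e-05). Of the 7 γ subunits tested, 2 increased and 2 decreased, against 31.4% and 31.1% of all genes tested. The largest decrease was that of Gng7, from 322 ± 49.9 to 219 ± 8.92 reads (-0.60, adjusted p = 7.26e-05 from edgeR). Of the 6 other α subunits tested, 3 increased and 3 decreased, against 31.4% and 31.1% of all genes tested, and 1 increased without DMSO replicate 2. Among these calls, Gnaz, Gnal and Gnat2 had group means of 8.5 to 30.2 reads and overlapping groups (adjusted p = 0.0834, 0.124 and 0.161 from edgeR). Named after its values were seen, Gnao1, which encodes Gαo of the wider Gi family, rose from 1049 ± 10.4 to 1320 ± 83.8 reads (0.28, adjusted p = 0.000345 from edgeR). Among the decreases was Gnaq, which encodes Gαq and activates phospholipase C (-0.17, adjusted p = 0.00592 from edgeR).

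The RGS proteins without an exchange factor domain, many of which speed up hydrolysis of GTP by Gαi or Gαq, fell for 8 of the 11 tested and rose for none, against 31.1% of all genes tested that decreased, with a list median of -0.50. Rgs4 had 1107, 1065 and 1040 reads with DMSO and 402, 404, 337 and 421 with purmorphamine, and its groups were far apart (log2 fold change -1.50, standard error 0.0664, adjusted p = 9.44e-12 from edgeR). Rgs17 had 24.0 ± 1.0 reads with DMSO and 6.0 ± 0.816 with purmorphamine (-2.02) and was tested only through its DMSO libraries. Its fall, which is counted in the 8 and in the list median, is therefore a description. Rgs3 (-0.01, adjusted p = 0.918 from edgeR) was not called, and over the alternatives 6 to 8 genes of the list decreased. Among the α subunits that RGS proteins can act on, Gnai2 was at 0.20, Gnai3 at 0.01, Gnao1 at 0.28, Gnaq at -0.17 and Gna11 at -0.16. Gnaz was at 0.66 with 9 to 21 reads per library. Gnai1, tested only through its purmorphamine libraries, was at 0.59 with 7 to 12 reads.

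Upstream of Gα12 and Gα13, 3 of the 8 coupled receptors tested increased and 2 decreased, a share called of 62.5% that equals that of all genes tested. Ednra, a receptor for endothelin, rose from 414 ± 16.0 to 1064 ± 91.3 reads (log2 fold change 1.31, adjusted p = 1.22e-10 from edgeR) and Lpar1, a receptor for lysophosphatidic acid, from 1458 ± 35.2 to 2772 ± 77.7 (0.88, adjusted p = 7.65e-11), whereas F2r, the thrombin receptor PAR1, fell from 1600 ± 27.7 to 1284 ± 48.3 (-0.36, adjusted p = 6.2e-06). Of the 18 other exchange factors of the Dbl family that act on RhoA, 9 increased and 7 decreased (88.9% called, against 62.5% of all genes tested), with Arhgef10 (1.07, adjusted p = 1.28e-09) and Kalrn (-1.38, adjusted p = 4.43e-13) at the ends of the range, whereas Arhgef1, Arhgef11 and Arhgef12 lay between -0.03 and 0.21.

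Of 17 RhoGAPs, which return RhoA to its inactive form, 7 increased and 7 decreased (82.4% called, against 62.5% of all genes tested), from Stard13 at -1.48 to Arhgap20 at 0.98. Of 16 RhoA effectors, 10 increased and 2 decreased, against 31.4% and 31.1% of all genes tested, with a list median of 0.19, and without purmorphamine replicate 5 only 1 decreased. Rock2, a kinase through which RhoA acts on myosin, rose from 4387 ± 163 to 5781 ± 421 reads (0.35, adjusted p = 7.54e-05), whereas its paralog Rock1 was at 0.03 (adjusted p = 0.675). The largest called changes among the effectors were those of Rhpn2, with few reads (1.14, 14.7 ± 4.51 to 33.5 ± 4.2), and Rtkn (-0.59, 277 ± 20.4 to 189.5 ± 18.3).

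**Figure D5:**
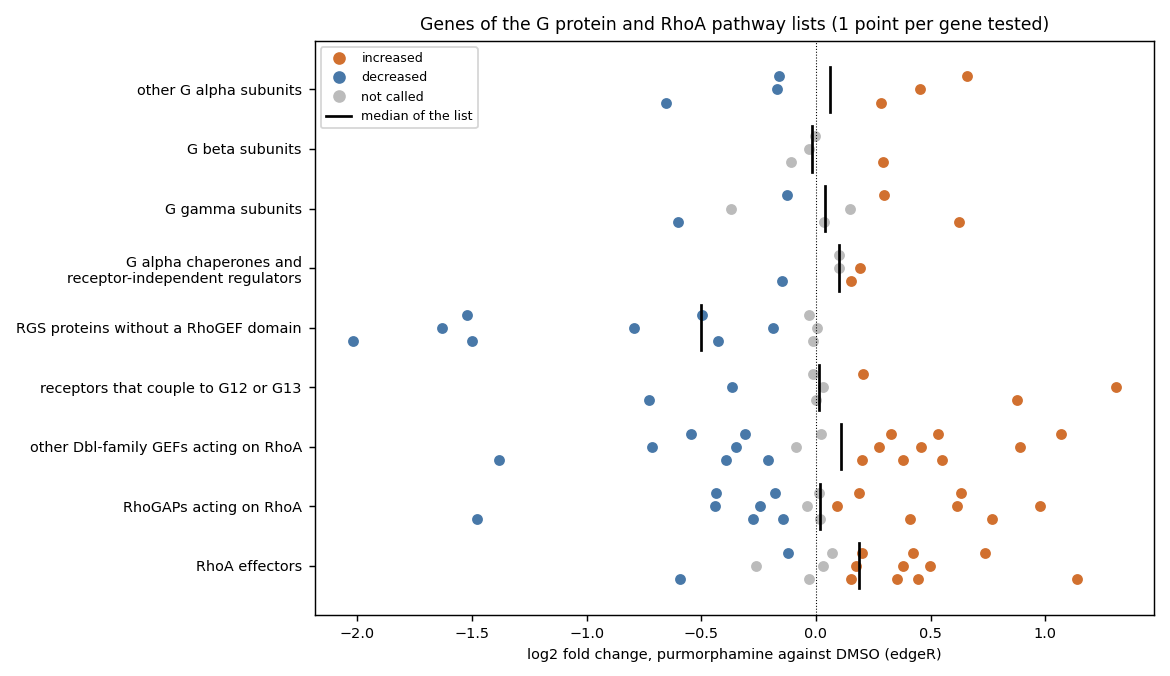
Log2 fold change (edgeR, purmorphamine against DMSO) of each tested gene of the 9 pathway lists, 1 point per gene, orange where increased, blue where decreased and grey where not called, with a black line at the median of each list. The RGS proteins have 8 blue points, no orange point and a median of -0.50, with Rgs17, tested only through its DMSO libraries, included. The RhoA effectors have 10 orange points and a median of 0.19.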

How the data were processed

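RNA of C3H10T1/2 cells (4 purmorphamine and 3 DMSO libraries) was read by the authors as single 100-base reads of strand-specific, ribosomal RNA-depleted libraries. The deposited values are whole-number counts of reads in the sense direction per gene, made by the authors after resampling the reads to equal numbers. The submitters' processing notes name STAR 2.5.3a and build mm9. The annotation release is not given in the sources used here. Groups were taken from the labels.

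The counts were tested with edgeR 4.0.16 (limma 3.58.1, R 4.3.3) with TMM factors, the default filter (a minimum of 10 counts, scaled to library size, and a total of 15), no covariates and Benjamini-Hochberg adjustment over all 12388 genes tested, at an adjusted p under 0.2. Intervals are at 95%. Single genes were compared on log2 of scaled counts with 1 added, and ratios on log2 of counts with 1 added, by exact permutation over the 35 assignments of the libraries, two-sided by the size of the difference, with a smallest p of 0.0286. Ensembl identifiers were matched to GENCODE M21 (GRCm38) for positions, lengths, overlaps and coding sequences (17632 genes, 95.5%), and the table's own mm9-type coordinates were not used. Libraries of a group differed by more than counting error (mean chi-square per gene 2.13 to 8.44), so no pair agreed within sampling noise, which does not show that the cultures were separate.

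The genes named are the 10 genes of the report, Gli1, and from each list the 2 with the highest mean count, the largest called increase and the largest called decrease, of which the text gives only some. The 10 genes and all lists were chosen with earlier results of these data known, and 2 further lists are not reported here. Alternatives were DESeq2 1.42.0, limma-voom, other scaling, other filters, an adjusted p under 0.05 and each library left out in turn. A correction for GC content and length (12103 genes tested had both, 97.7%) and the longest protein-coding transcript as gene length, and adjustment over the 5 ratios without Gnai1, were chosen after seeing the data. The calculations were tested on simulated counts.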

Additional observations from a re-analysis of the deposited data

Results flagged for a closer look

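Of 43 named genes examined for a library far from the others of the purmorphamine group, 1 was found, where chance gives about 2.15 at 1 in 20. Gpsm2 encodes LGN, a protein that binds Gαi without a receptor. It rose from 479 ± 25.8 reads with DMSO to 565 ± 26.8 with purmorphamine (log2 fold change 0.19, standard error 0.0647, adjusted p = 0.0228 from edgeR), and its purmorphamine replicate 7 had 525 reads whereas the other libraries of the group had 572, 582 and 580. After scaling by the TMM factors, with which this was examined, the values were 522 against 564, 571 and 570, and the gap to the nearest library was 0.854 of the group's range, above the critical value of Dixon's test at 95%. With the deposited reads the gap was 0.825 of the range, just below that value. No value of the 10 genes of the report met this criterion.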

How the results depend on the processing

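No paired analysis was possible because the DMSO and purmorphamine libraries share no replicate number. Gna12, Gnai2, Gnas and Arhgef11 kept direction and call in all 16 alternatives. Of the 10 genes, 4 were increased, with 3 to 5 over the alternatives: 5 with upper-quartile factors or library totals, where Gna13 was added, and 3 with no filter, DESeq2 or an adjusted p under 0.05, where Gnai1 was lost. The number increased was also 3 without DMSO replicate 3 or 4 or purmorphamine replicate 8, again without Gnai1. It stayed at 4, with Gna13 in place of Gnai1, with at least 10 counts in every library, or without DMSO replicate 2 or purmorphamine replicate 6. The number decreased was 1, but 2 with limma-voom, and 1 to 2 with each library left out, Rhoa being added. The adjusted p of Gna13 ranged from 0.0517 to 0.551 and that of Gnai1 reached 0.347 with DESeq2. With library totals alone, 59.5% of all calls were increases, against 50.2% with TMM factors, and the median log2 fold change over all genes was 0.0513 against 0.00376. Over the alternatives 2879 to 4652 genes increased and 2926 to 3991 decreased.

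Signs turned only among values that did not pass the test: Gnai3 at -0.0023 and Rock1 at -0.01 and Gnb2 at 0.02 with the GC and length correction, Arhgef12 and Gnb1 at 0.02, Gnb2 at 0.05 and Rgs3 at 0.04 with library totals, and Gnb2 at 0.0025 with no filter and 0.001 with at least 10 counts in every library. With each library left out, log2 fold changes ran from -0.01 to 0.06 for Gnai3, -0.06 to 0.10 for Arhgef1, -0.05 to 0.01 for Gnb1, -0.06 to 0.07 for Gnb2, -0.05 to 0.03 for Rgs3 and -0.0044 to 0.07 for Rock1, and the difference in the ratio of Arhgef1 to Arhgef12 from -0.05 to 0.13. Apart from the libraries left out, the cause was not tested. Depth limits Gnai1 most, at 7 to 12 reads per library.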
